A study of Mus musculus with 7 samples.

Results

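The kinesin, dynein and dynactin genes are 61 genes, of 55401 in the count tables, whose symbols start with Kif, Klc, Dync, Dynl or Dctn and that had 10 or more counts in at least 3 of 7 libraries of Purkinje cell RNA. The prefixes matched 75 genes, of which 4 pseudogenes were left out by name (Dynlt1-ps1, Kif22-ps, Kif4-ps and Kifc5c-ps) and 10 lay under the count minimum (Dynlrb2, Kif12, Kif14, Kif15, Kif16bos, Kif18b, Kif23, Kif28, Kif2b and Kif4). The genes just inside the minimum, Klc3, Kif24, Kif6 and Kif2c, reached it in 3 libraries with 118, 113, 87 and 66 counts over all 7, and Kif20b reached it in 4 libraries with 86 counts. Just outside it were Dynlrb2 with 43 counts and Kif4 with 32 counts, each with 10 or more counts in 2 libraries.

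The study asked which transcripts depend on RREB1, a zinc finger transcription factor, in Purkinje cells, the output neurons of the cerebellar cortex. It used RiboTag mice, in which the ribosomal protein RPL22 carries an HA epitope tag in cells that express Cre, so that an antibody to HA pulls down the ribosomes of those cells with their mRNA. The mutant mice were Rpl22fl/+; PCP2-Cre; nm3888-/- (4 mice), and the mice they were set against were Rpl22fl/+; PCP2-Cre and wild type at the nm3888 locus (3 mice), all 3 weeks old, with 1 mouse per library. Both genotypes carried the floxed Rpl22 allele and the Cre transgene, which is driven by the promoter of the Purkinje cell gene Pcp2, and nm3888 is a retrotransposon insertion in an intron of Rreb1. The libraries formed 2 series by their names, the first with nm3888-/- mice 1 and 2 and wild-type mice 1 and 2, all female, and the second with nm3888-/- mice 3 and 4, both male, and wild-type mouse 3, female.

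Kinesins are motors that use ATP to walk along microtubules, most of them toward the plus end, which in axons points to the synapse. Cytoplasmic dynein walks toward the minus end and needs the dynactin complex and an adaptor for long runs. A Purkinje cell has a large dendritic tree and an axon to the deep cerebellar nuclei, and it supplies both by this transport, while other kinesins serve cell division or cilia and are little used by a neuron that no longer divides.

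Library totals ranged from 18023017 to 56809597 counts in nm3888-/- and from 25843485 to 107937386 counts in wild type, and the motor genes took 0.740 to 0.867% of the counts in nm3888-/-, against 0.849 to 0.979% in wild type. The summed CPM of 20 Purkinje cell markers (counts scaled to the library's total times its TMM factor) was 51066 to 67713 in nm3888-/- and 53888 to 63483 in wild type, and their median log2 fold change was 0.08, so the labelled cell type was present in every library. Rreb1 itself, the gene that carries the insertion, had 20.2, 19.1, 23.7 and 10.8 CPM in the libraries labelled nm3888-/- and 17.7, 17.4 and 14.4 CPM in those labelled wild type. It was not lower in nm3888-/- (log2 fold change 0.20, SE 0.23, edgeR adjusted p = 0.64), and 3 of the 4 nm3888-/- libraries were above every wild-type library. The gene counts therefore do not back the genotype labels. They sum all transcripts of Rreb1, its single transcripts were not tested, and every direction given here rests on the labels alone. The paper reported loss of the predominant brain transcript of Rreb1 in mutants, with other long transcripts near wild type. Its Northern blot and in situ hybridization, with probes to all Rreb1 transcripts, also showed a loss. Those used cerebellum or brain and not ribosome-bound RNA, and the counts here do not show such a loss. The share of reads on pseudogenes set the series apart, at 8.84 to 10.2% in the first and 0.199 to 0.272% in the second.

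Among the 59 motor genes tested, 8 were lower in nm3888-/- Purkinje cells (13.6% of those tested) and 0 were higher, by the quasi-likelihood test of edgeR, with p-values adjusted by Benjamini-Hochberg over all 17621 genes tested and the library series as a term. Over all genes tested, 5.95% were called lower and 2.58% higher. The 8 genes were Kifc2, Kifap3, Dync1li2, Dctn1, Kif3c, Klc2, Kif1a and Dync1i1, which cover a minus-end kinesin, 2 subunits of kinesin-2, a kinesin light chain, a kinesin-3 and 3 subunits of dynein and dynactin. At an unadjusted p under 0.05, 16 motor genes were lower and 6 higher (over all genes, 13.2% and 10.4%). The counts by family below rest on few genes each and are to be read beside these shares over all genes. DESeq2 called 10 of 60 lower and 1 higher, against 6.9% and 4.34% of all genes, and the additional genes were Kif5c, Dynlt3 and, as the higher one, Kif5b.

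All 8 called genes stood among the 20 motor genes with a mean of 100 CPM or more (40% of these 20), a level class in which 12.8% of all tested genes were called lower and 1.9% higher. None of the 17 motor genes between 10 and 100 CPM, the 13 between 1 and 10 CPM or the 9 below 1 CPM passed the test, and for the low ones the depth limited what could be detected. The median log2 fold change (nm3888-/- over wild type) of the 59 genes was -0.01 with 31 values negative and 28 positive, beside a median of 0.03 over all genes tested. The sign of this median changed under several settings. Summed over the 61 genes, the CPM was 6986 and 7617 in nm3888-/- against 8872 and 8829 in wild type in the first series, and 8299.7 and 8500.1 in nm3888-/- against 10311 in wild type in the second, below wild type in each.

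**Figure D1:**
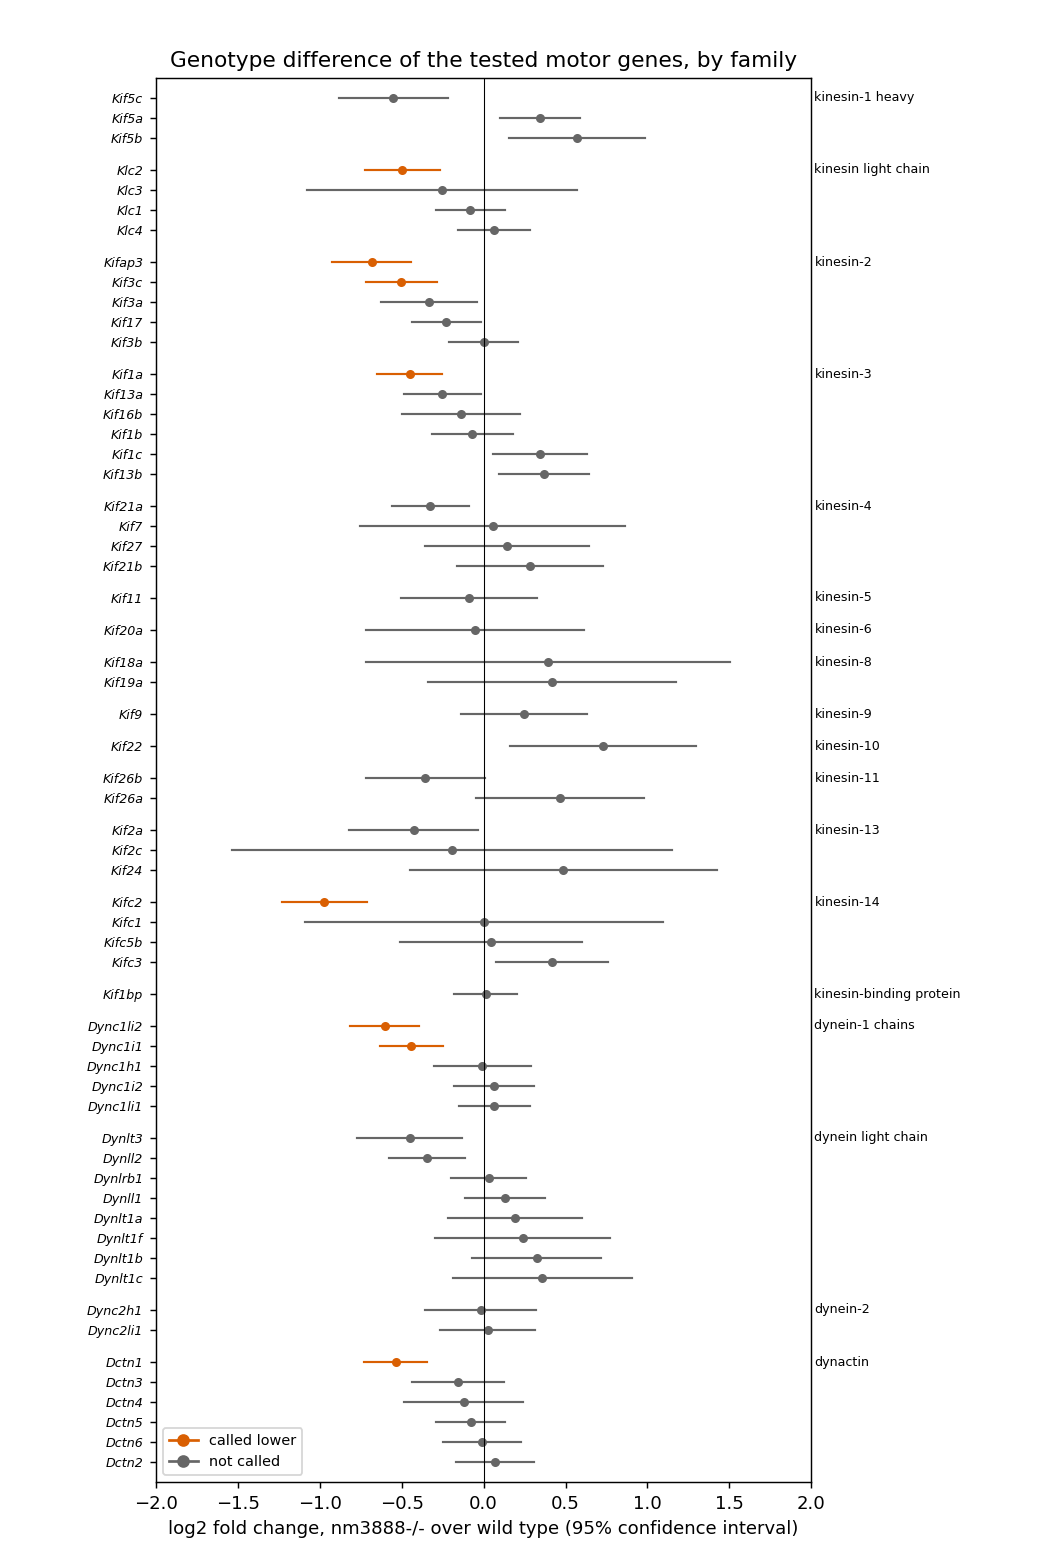
Fitted log2 fold change (nm3888-/- over wild type, x axis) with its 95% confidence interval for the 59 tested motor genes, grouped by family, with the 8 genes called lower in orange and the others in grey. The called genes lie between -0.97 and -0.44 and are spread over 6 families, and the widest intervals belong to genes with few counts.

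The number of called genes depended on how the libraries were modelled. With mice paired by replicate number (a block) instead of the series term, 4 motor genes were lower (Kifc2, Kifap3, Dync1li2 and Dctn1) and 0 higher, against 3.24% and 1.37% of all genes, and the edgeR adjusted p of the other 4 was 0.0605 to 0.0888. In that fit nm3888-/- mouse 4 has no wild-type partner and adds nothing to the genotype difference. Fewer residual degrees of freedom are left as well, which lowers the power. With the series term kept, 4 genes were called when wild-type mouse 2 was left out, and 3 when wild-type mouse 3 was left out (Kifc2, Kifap3 and Dync1li2). Over all genes, 562 of 18387 and 426 of 17858 were then called lower, against 1049 of 17621 with every library. With no series term 1 gene (Dync1li2) was called, and with sex in place of the series 0 were called. Calls over all 17621 genes fell too, to 251 and 85 lower. The fold changes of all 8 motor genes stayed negative under both. The only males were nm3888-/- mice 3 and 4, so the sex term absorbs them. That fit sets nm3888-/- mice 1 and 2 against wild-type mice of both series, with the series uncorrected.

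Kinesin-1, the motor of mitochondria and many vesicles, is built from KIF5 heavy chains and cargo-binding KLC light chains. In wild type its most abundant heavy chain per length was Kif5c, a form enriched in neurons, with 94.0 ± 14.9 CPM per kb of exons in nm3888-/- and 138 ± 14.8 CPM per kb in wild type (SD, n = 4 and n = 3). By CPM, Kif5c had 539, 756, 759 and 632 in nm3888-/- mice 1 to 4, against 1102, 969 and 892 in wild-type mice 1 to 3. Every nm3888-/- library was below every wild-type library. The log2 fold change was -0.55 (SE 0.15), and the adjusted p of 0.052 from edgeR's quasi-likelihood test missed the threshold of 0.05. It passed with DESeq2 (adjusted p = 0.00968) and with RLE size factors (adjusted p = 0.0485), and across all alternatives run its adjusted p lay between 0.00424 and 0.358.

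The other heavy chains pointed the opposite way. Kif5a, also enriched in neurons, had 832, 921, 685 and 757 CPM in nm3888-/- against 589, 698 and 630.1 CPM in wild type, with nm3888-/- above wild type within each series (log2 fold change 0.34, SE 0.11, edgeR adjusted p = 0.0902). Kif5b, the form found in most cell types, had 88.8, 139, 145 and 185 CPM in nm3888-/- against 84.1, 91.3 and 90.4 CPM in wild type, where nm3888-/- mouse 1 overlapped with wild type and the other 3 mice lay above it (log2 fold change 0.57, SE 0.18, edgeR adjusted p = 0.0978). Neither gene passed in the joint edgeR fit of all libraries with the series term and the filter on low counts. Kif5b passed without that filter (adjusted p = 0.0194), with DESeq2 (adjusted p = 0.0277) and, in edgeR, without nm3888-/- mouse 1 (adjusted p = 0.0145), and over all alternatives its adjusted p lay between 0.0145 and 0.725.

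By share of message, Kif5c was the leading heavy chain in 1 of 4 nm3888-/- libraries and in 3 of 3 wild-type libraries, and Kif5a led in the other nm3888-/- mice. Kif5c took 41.6 ± 4.62% of the length-scaled KIF5 message in nm3888-/- and 57.4 ± 3.98% in wild type (SD, n = 4 and n = 3). Kif5a took 50.7 ± 5.73% in nm3888-/- and 38.0 ± 3.65% in wild type, and Kif5b took 7.72 ± 2.17% in nm3888-/- and 4.62 ± 0.387% in wild type. The summed CPM of the 3 genes overlapped, at 1459.99 to 1816 in nm3888-/- and 1613 to 1775 in wild type. These shares were described and not tested.

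Of the 4 light chain genes tested, 1 was lower. Klc2, on chromosome 19 of mm10 from 5107746 to 5118560, had 231, 230.1, 287 and 345 CPM in nm3888-/-, against 294, 332 and 473 CPM in wild type. Levels were higher in the second series in both genotypes, and within each series nm3888-/- stood below wild type (log2 fold change -0.50, SE 0.10, edgeR adjusted p = 0.0185). Klc1, the other abundant light chain, had 403, 378, 634 and 725 CPM in nm3888-/- and 389, 402 and 767 CPM in wild type (log2 fold change -0.08, 95% confidence interval -0.29 to 0.13), and Klc4 (log2 fold change 0.06) and the nearly undetected Klc3 did not pass either. Klc2 took 42.1 ± 3.77% of light chain message in nm3888-/- and 50.5 ± 3.79% in wild type, and Klc1 took 52.2 ± 2.79% in nm3888-/- and 45.2 ± 3.37% in wild type.

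**Figure D2:**
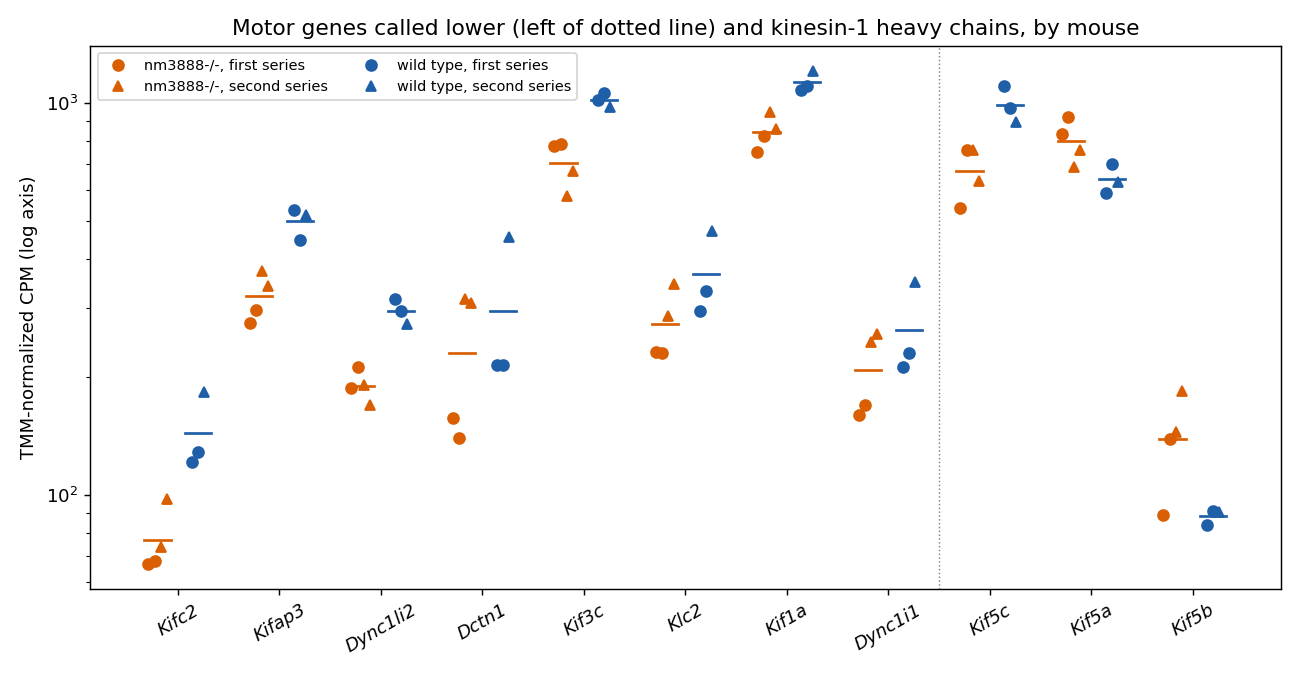
TMM-normalized CPM (log axis) in each mouse for the 8 motor genes called lower and, right of the dotted line, the 3 kinesin-1 heavy chains; orange marks nm3888-/- and blue wild type, circles the first series, triangles the second, and lines the group means. The 4 nm3888-/- libraries of Kifc2 lie between 66.8 and 97.9 CPM, below the wild-type range of 122 to 183, whereas for Dctn1, Klc2 and Dync1i1 the genotypes separate only within a series.

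Kinesin-2 joins a KIF3A motor with KIF3B or KIF3C, and KAP3, encoded by Kifap3, links the KIF3A and KIF3B pair to cargo. All 5 genes of the family were tested, 2 of them were lower, and the median log2 fold change was -0.33. Kifap3 had 274, 297, 372 and 341 CPM in nm3888-/-, against 532, 447 and 518 CPM in wild type, with no overlap between the genotypes (log2 fold change -0.68, SE 0.11, edgeR adjusted p = 0.0052). Kif3c, whose product pairs with KIF3A and is enriched in neurons, had 775, 784, 580.4 and 672 CPM in nm3888-/-, against 1016, 1057 and 974 CPM in wild type. These ranges did not overlap either (log2 fold change -0.50, SE 0.10, edgeR adjusted p = 0.0142).

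The remaining kinesin-2 genes did not pass. Kif3a, the shared partner, had 166, 141, 204 and 265 CPM in nm3888-/- and 169, 182 and 342 CPM in wild type, below wild type within each series (log2 fold change -0.33, SE 0.13, edgeR adjusted p = 0.154). Kif3b had a log2 fold change of -0.00 with a 95% confidence interval of -0.21 to 0.21, and Kif17, a separate motor of dendritic vesicles, one of -0.23 (edgeR adjusted p = 0.182). Of the length-scaled message of the 3 KIF3 motors, Kif3c took 55.7 ± 6.71% in nm3888-/- and 61.9 ± 7.63% in wild type, and Kif3b took 12.6 ± 1.62% in nm3888-/- and 9.80 ± 1.30% in wild type.

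The promoters of the 2 lower kinesin-2 genes are shown because these genes code for parts of one motor family and fell together. Kifap3 lies on chromosome 1 from 163779583 to 163917109 (plus strand) and Kif3c on chromosome 12 from 3365132 to 3406494 (plus strand) of mm10. The windows are the 250 bases before each RefSeq start in GRCm38.p6, chr1:163779333-163779582 and chr12:3364882-3365131, both on the plus strand and written 5′ to 3′. Capitals mark CAGATG, an E-box of the kind bound by neuronal bHLH factors, which reads CATCTG when it lies on the other strand.
Kifap3: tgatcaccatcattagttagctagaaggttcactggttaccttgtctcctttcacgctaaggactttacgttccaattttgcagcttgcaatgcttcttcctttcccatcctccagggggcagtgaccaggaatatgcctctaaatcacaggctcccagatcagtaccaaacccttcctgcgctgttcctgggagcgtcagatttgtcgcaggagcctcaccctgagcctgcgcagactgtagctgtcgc
Kif3c: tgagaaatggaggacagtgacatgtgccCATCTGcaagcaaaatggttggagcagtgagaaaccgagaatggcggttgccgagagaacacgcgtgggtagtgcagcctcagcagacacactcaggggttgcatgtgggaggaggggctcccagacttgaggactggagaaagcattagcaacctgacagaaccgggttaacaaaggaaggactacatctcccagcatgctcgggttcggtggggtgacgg
CAGATG was searched on both strands together with CCACCC, a C-rich core like that in known RREB1 binding sites, and neither motif contains the other. CAGATG was in 1 of the 7 windows found for 5 of the called genes (that of Kif3c), in 6 of 51 windows of 44 motor genes and in 14.4% of all 32851 windows. CCACCC was in 0 of the 7, in 11 of the 51 and in 28.1% of all windows. With 7 windows for 5 genes, a difference from these shares could not be shown, so nothing is concluded from it. The windows of Dctn1 and a second one of Kif1a lay inside the annotated gene.

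Kinesin-3 motors carry synaptic vesicle precursors and dense-core vesicles, and 1 of the 6 tested genes was lower. Kif1a, the main carrier of synaptic vesicle precursors (chromosome 1, 93015464 to 93101951), had 750.5, 823, 946 and 859 CPM in nm3888-/-, against 1079.9, 1105 and 1208 CPM in wild type. No nm3888-/- library reached the wild-type range (log2 fold change -0.45, SE 0.09, edgeR adjusted p = 0.015). Kif1b, its close relative, had 205, 248, 251 and 214 CPM in nm3888-/- and 256, 243 and 227 CPM in wild type, which overlapped (log2 fold change -0.07). Kif1c and Kif13b had positive values (0.34 and 0.37), and the endosomal motors Kif13a and Kif16b negative ones (-0.25 and -0.14), none of which passed.

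Kifc2 showed the largest change of any called motor gene. It encodes a kinesin-14, a group with the motor at the C terminus that walks toward the minus end, and it is expressed mainly in neurons. Kifc2 lies on chromosome 15 of mm10 from 76659858 to 76668196 and had 66.8, 68.1, 73.9 and 97.9 CPM in nm3888-/-, against 122, 129 and 183 CPM in wild type. The highest nm3888-/- library was below the lowest wild-type library (log2 fold change -0.97, SE 0.11, edgeR adjusted p = 0.0013). The other kinesin-14 genes did not pass, with Kifc3 at 0.42 (edgeR adjusted p = 0.133), Kifc1 at 0.00 and Kifc5b at 0.04. Kifc1, a motor of the mitotic spindle, and Kifc5b are close copies, so the split of reads between them is uncertain.

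Kinesins that act on the microtubule itself did not pass. Kif21a, a kinesin-4 that limits microtubule growth, had 86.4, 101, 169 and 156 CPM in nm3888-/- and 129, 125 and 183 CPM in wild type, below wild type within each series (log2 fold change -0.33, SE 0.10, edgeR adjusted p = 0.0943). Kif2a, a kinesin-13 that takes tubulin off microtubule ends, had 32.0, 49.4, 57.0 and 44.9 CPM in nm3888-/- and 65.7, 56.5 and 58.2 CPM in wild type (log2 fold change -0.43, SE 0.17, edgeR adjusted p = 0.179). Kif21b had a log2 fold change of 0.28, Kif26b one of -0.35 and Kif26a one of 0.47. Kif1bp, whose product binds the motor domain of several kinesins and keeps them off microtubules, was nearly the same in every mouse, at 93.6 to 104 CPM in nm3888-/- and 96.3 to 101 CPM in wild type (log2 fold change 0.01, 95% confidence interval -0.18 to 0.20).

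Kinesins of the mitotic spindle were near the limit of detection, and 0 of the 6 tested on a list of 12 were called by edgeR or DESeq2. At an unadjusted p under 0.05 there was 1, Kif22, where 13.2% of all genes were lower and 10.4% higher. The summed level of the listed kinesins was 4.11 to 6.76 CPM in nm3888-/- and 3.88 to 5.87 CPM in wild type. Kif11, the spindle motor Eg5, had a log2 fold change of -0.09, Kif20a -0.05, Kif18a 0.40 and Kif2c -0.20. Kif22, a kinesin of chromosome arms, had the largest positive value of the set (0.73, SE 0.25, edgeR adjusted p = 0.115), at 0.734, 0.626, 1.26 and 1.15 CPM in nm3888-/- and 0.316, 0.475 and 0.741 CPM in wild type. Kif20b and Kif6 were members with too few counts to be tested, at 0.105 to 0.387 and 0.0524 to 0.332 CPM in nm3888-/- and 0.119 to 0.277 and 0.0790 to 0.439 CPM in wild type.

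Motors of cilia were also low, with 0 of 7 tested genes on a list of 9 called by edgeR or DESeq2. At an unadjusted p under 0.05 it was 0 as well, where 13.2% of all genes were lower and 10.4% higher. With only 7 genes, such a count does not set these motors apart. Dync2h1 and Dync2li1, which encode the heavy and a light intermediate chain of dynein-2, the motor of return transport in cilia, had log2 fold changes of -0.02 and 0.03. Kif9 had 0.25, Kif19a, which shortens cilia, 0.42, Kif27 0.14, and Kif7, a regulator of Hedgehog signalling, 0.06. Kif24, a kinesin-13 of the centriole, had 0.49 with a 95% confidence interval of -0.45 to 1.42.

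Cytoplasmic dynein is built on the heavy chain DYNC1H1, and its intermediate and light intermediate chains connect it to dynactin and to adaptors. Of the 5 genes 2 were lower, and they were the more abundant member of each pair of chains. They lie in mm10 on chromosome 8 from 104417680 to 104443047 (Dync1li2) and on chromosome 6 from 5725639 to 6028039 (Dync1i1). Dync1li2 had 188, 212, 191 and 169 CPM in nm3888-/-, against 316, 295 and 272 CPM in wild type, without overlap (log2 fold change -0.60, SE 0.09, edgeR adjusted p = 0.00514). Dync1i1, the intermediate chain enriched in neurons, had 160.0, 170.2, 246 and 258 CPM in nm3888-/-, against 212, 230.1 and 349 CPM in wild type. Here the genotypes separated within each series (log2 fold change -0.44, SE 0.08, edgeR adjusted p = 0.0142).

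The heavy chain and the paralogous chains did not pass. Dync1h1 had 160.4, 199, 392 and 296 CPM in nm3888-/- and 187, 194 and 319 CPM in wild type (log2 fold change -0.01, 95% confidence interval -0.30 to 0.29), Dync1i2 had a log2 fold change of 0.06, and Dync1li1 one of 0.07. In the length-scaled message of each pair, Dync1li2 took 55.8 ± 4.95% in nm3888-/- and 68.1 ± 5.05% in wild type, and Dync1i1 took 86.8 ± 2.25% in nm3888-/- and 90.7 ± 0.686% in wild type. Within each series every nm3888-/- library had a smaller share of both than wild type.

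**Figure D3:**
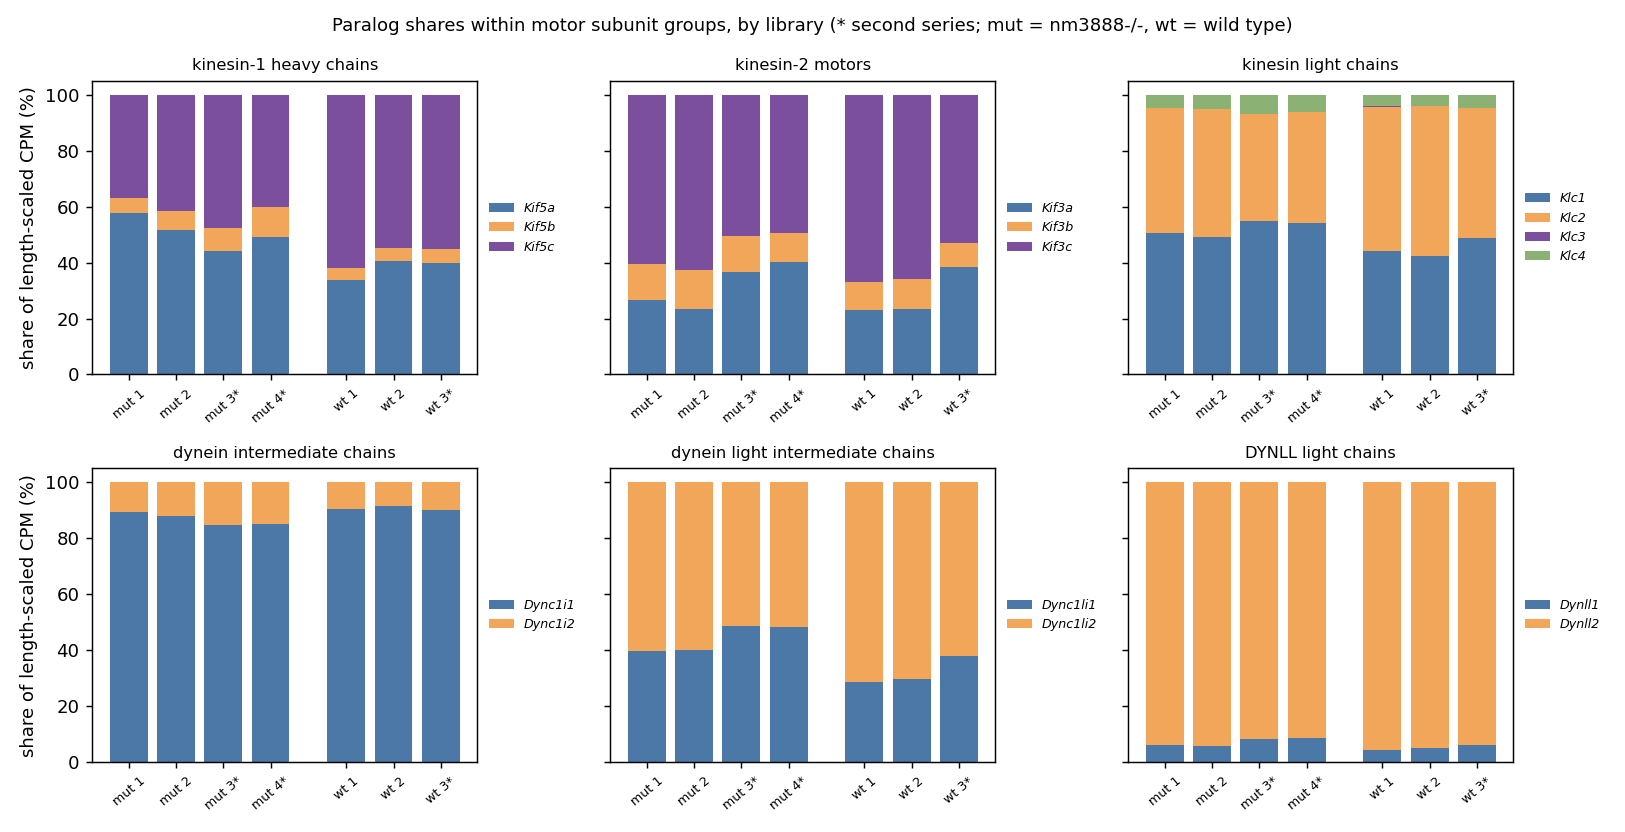
Share (%) of length-scaled CPM that each paralog took of its subunit group, one stacked bar per library, with the 4 nm3888-/- libraries left of the 3 wild-type ones and the second series marked by an asterisk. Kif5c falls short in the nm3888-/- bars (41.6% on average, against 57.4% in wild type), as do Klc2 (42.1% against 50.5%) and Dync1li2 (55.8% against 68.1%).

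Dynein light chains sit at the base of the complex and also bind many other proteins, and 0 of the 8 tested passed in edgeR. At an unadjusted p under 0.05 there were 2, Dynll2 and Dynlt3, and DESeq2 called 1, Dynlt3. Over all genes, 13.2% were lower and 10.4% higher at that unadjusted p, so these counts do not set the 8 genes apart. Dynll2 was the most abundant motor gene per length in both genotypes, at 259 ± 42.2 CPM per kb in nm3888-/- and 337 ± 21.8 CPM per kb in wild type, and its CPM was 770.4, 824, 562 and 673 in nm3888-/- and 975, 933 and 857 in wild type. All nm3888-/- values were below all wild-type values, yet the test was not passed (log2 fold change -0.35, SE 0.10, edgeR adjusted p = 0.0741, and 0.0414 with no filter on low counts). Dynlt3 had 70.7, 97.2, 69.7 and 77.3 CPM in nm3888-/- and 137, 111 and 89.9 CPM in wild type, lower within each series (log2 fold change -0.45, SE 0.14, edgeR adjusted p = 0.0883, 0.0302 with no filter on low counts and 0.0463 with DESeq2). Dynll1 and Dynlrb1 had log2 fold changes of 0.13 and 0.03.

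Dynlt1a, Dynlt1b, Dynlt1c and Dynlt1f are close copies of one gene and had log2 fold changes of 0.19, 0.32, 0.36 and 0.24, none of which passed. Their counts are uncertain, since a pseudogene copy, Dynlt1-ps1, took 542 and 756 counts in nm3888-/- and 533 and 557 counts in wild type in the first series, and 3 and 4 counts in nm3888-/- and 14 counts in wild type in the second. The pseudogene thus took far fewer counts in the second series than in the first.

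Dynactin couples dynein to cargo and to the microtubule, and 1 of its 6 tested genes was lower. Dctn1 encodes p150Glued, the subunit that binds both microtubules and the dynein intermediate chain, and lies on chromosome 6 of mm10 from 83165920 to 83200117. It had 157 and 139.8 CPM in nm3888-/- against 215 and 214 CPM in wild type in the first series, and 316 and 308 CPM in nm3888-/- against 454 CPM in wild type in the second. The series differed more than the genotypes, and within each the nm3888-/- values were below wild type (log2 fold change -0.54, SE 0.08, edgeR adjusted p = 0.00589). Dctn2, Dctn3, Dctn4, Dctn5 and Dctn6 had log2 fold changes of 0.07, -0.16, -0.12, -0.08 and -0.01, and none passed.

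Fitted on its own, the first series called 3 of 55 motor genes lower (Kifc2, Kifap3 and Dync1li2) and 0 higher, against 2.86% and 1.12% of all genes. The second series, with 1 wild-type library that was assumed to vary like the nm3888-/- ones, called 1 of 61 lower (Kifc2) and 1 higher (Kif5b, log2 fold change 0.87, edgeR adjusted p = 0.0228, not called with RLE size factors), against 2.84% and 3.27% of all genes. In that series sex and genotype cannot be told apart. All 8 genes called in the joint fit had negative fold changes in both series. That fit chose them from these same libraries, so the shared sign is no separate support. Of the 55 motor genes tested in both series, 38 had the same sign, and no share over all genes was set beside this count. Across these 55 genes, which share the libraries of each series and are not independent, the fold changes had Pearson's r = 0.70 and Spearman's rho = 0.71. The interaction of genotype and series called 0 motor genes (edgeR adjusted p of 0.923 or higher), and 0.0795% of all genes.

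**Figure D4:**
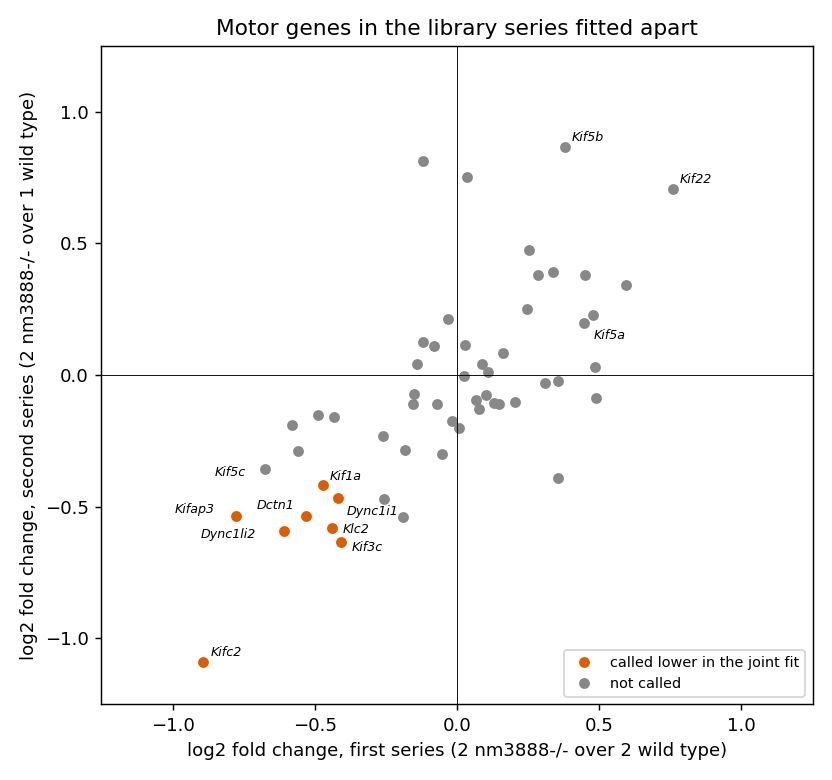
Log2 fold change (nm3888-/- over wild type) of each motor gene in the first series (x axis, 2 against 2 mice) and in the second (y axis, 2 against 1) for the 55 genes tested in both. The 8 genes called lower in the joint fit (orange) all lie in the lower left, led by Kifc2 at -0.89 and -1.09, and Kif5b lies at 0.38 and 0.87. The joint fit used these same libraries, so the place of the orange genes is no separate support.

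Counted without a model, 16 motor genes had all nm3888-/- libraries below wild type in each series and 9 had all above, where 16.6% and 14% of all tested genes did (27.1% and 15.3% of the motor genes). The 16 were the 8 called genes with Kif5c, Dynlt3, Kif2a, Dynll2, Kif3a, Kif21a, Kif13a and Kif17. The 9 were Kif5a, Kif1c, Kif13b, Kifc3, Kif26a, Kif22, Kif9, Kif21b and Dynlt1b. The share below was larger among the motor genes than among all genes, and the share above was close to it.

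The series also differed in level for many of these genes. In wild type, Dctn1 was 2.12 times and Dctn3 2.75 times as high in the second series as in the first, whereas Kif5c was at 0.862 and Dync1li2 at 0.892 of the first. Across the 59 motor genes with a fold change, this ratio went with the number of exons per kb of message (Pearson's r = 0.51, Spearman's rho = 0.48, from the same 3 wild-type libraries). The file headers name a Bowtie2 folder for the first series and a STAR folder for the second, and the part of this in the levels was not tested. The series term removes a shift common to both genotypes.

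In wild type the order of motor messages per length was led by Dynll2, at 337 ± 21.8 CPM per kb, followed by Kif5c (138 ± 14.8), Kif3c (137 ± 5.62), Kifap3 (124 ± 11.3) and Kif1a (121 ± 7.31), and then by Dynlrb1 (96.0 ± 23.1), Kif5a (91.4 ± 7.88), Klc2 (88.6 ± 22.7) and Klc1 (81.7 ± 33.8; SD, n = 3). Neighbours in this order after Dynll2 did not differ beyond their spread. In nm3888-/-, Kif5a (114 ± 14.5 CPM per kb) and Dynlrb1 (102 ± 15.2) came after Dynll2 and ahead of Kif3c (94.9 ± 13.02), Kif5c (94.0 ± 14.9) and Kif1a (90.5 ± 8.70; SD, n = 4), and these neighbours overlapped too. Of the called genes, Kif3c, Kifap3, Kif1a and Klc2 were among the 9 most abundant motor messages of wild type.

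Of 36 tested genes that load or regulate these motors, 4 were lower (11.1%) and 0 higher, where 5.95% and 2.58% of all genes were, with 0 higher at an unadjusted p under 0.05 as well. The 4 each had a mean of 100 CPM or more, a level class in which 12.8% of all tested genes were called lower. The 11.1% covers adaptors of every level and is not the like share for that class, which was not counted. Arl8a, a small GTPase that recruits kinesin to lysosomes, had 128, 131, 123 and 142 CPM in nm3888-/- against 169.7, 194 and 218 CPM in wild type (log2 fold change -0.58, SE 0.10, edgeR adjusted p = 0.0091). Mapk8ip1 and Mapk8ip2, which encode the JIP scaffolds that bind kinesin-1, had log2 fold changes of -0.38 and -0.36 (edgeR adjusted p = 0.024 and 0.033). Madd, which links KIF1 motors to vesicles with RAB3, had a log2 fold change of -0.36 (edgeR adjusted p = 0.0344). With the replicate block 1 adaptor was called lower, and without wild-type mouse 2 or 3 it was 0.

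RNA of other cells was part of these libraries, and its markers leaned toward nm3888-/-. For granule cells the median log2 fold change over 16 markers was 0.51 (1 higher, 0 lower), and the summed level was 788 to 1550 CPM in nm3888-/- and 592 to 710.0 CPM in wild type. Oligodendrocyte markers had a median of 0.54 (2 of 16 higher, 1 lower; 735 to 1300 CPM in nm3888-/- and 562 to 800.1 CPM in wild type), and Bergmann glia and astrocyte markers one of 0.59 (2 of 16 higher, 2 lower; 9818 to 14380 CPM in nm3888-/- and 8262 to 13522 CPM in wild type). Nearly all of that last sum was Aldoc, which Purkinje cells also express. The other 15 markers summed to 491 to 839.9 CPM in nm3888-/- and 549.7 to 673 CPM in wild type, which overlapped. None of the markers on these 3 lists was at 0 in all libraries. The part of such RNA in the values of Kif5b, Kifc3, Kif13b and Kif1c was not tested. In bulk RNA of this kind fewer cells of a type and less RNA per cell cannot be told apart.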

How the data were processed

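RNA bound to HA-tagged ribosomes was sequenced from cerebella of 4 nm3888-/- and 3 wild-type mice, and groups, sex and age follow the sample labels. The methods list 4 nm3888-/- mice and then 3 libraries of each genotype. The labels give a library for all 4 mutants, and all 4 were used. Per the methods, the authors removed duplicates and trimmed reads with fastp and aligned them to mm10. Per the file headers, the deposited values are raw counts of read pairs per gene (featureCounts 2.0.1, GENCODE M25, both ends mapped, reverse-stranded), with the length of the union of exons of each gene, from a Bowtie2 folder in the first library series and a STAR folder in the second, where the methods name Bowtie2 alone. Totals ranged from 18023017 to 107937386 counts. Symbols came from an earlier GENCODE release than that of the counts, matched by gene ID without its version. Of 55401 gene IDs, 55141 matched a symbol and 54349 had the same versioned ID.

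Counts were tested with edgeR 4.0.16 (limma 3.58.1, R 4.3.3) by glmQLFit and glmQLFTest after TMM normalization and filterByExpr (17621 genes), with the library series as a term, since the methods name a batch covariate without assigning libraries to it. Adjusted p is Benjamini-Hochberg over all genes tested, with calls under 0.05, and the SE is the size of the fold change over the root of its F value. CPM per kb divides CPM by the exon length. Separation within series means that all nm3888-/- libraries of a series lay on one side of its wild-type libraries. Replicates were separate mice, so p-values measure the spread between mice, with the variance of each gene moderated over all genes (8.63 degrees of freedom in all). The second series held 1 wild-type mouse and so gave no spread between wild-type mice. The test was also run on simulated counts drawn with dispersions estimated from these same libraries. That run cannot speak to the overlap of sex or series with genotype. Alternatives were RLE size factors, DESeq2 1.42.0, no filter on low counts, no batch term, sex as the term, the replicate number as a block, pseudogenes left out, and each library left out.

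The members and lists were chosen with earlier results of these data known, and the lists of mitotic and ciliary motors were added after values had been seen. The genes chosen for a full account were the called members, the member with the highest level per length in each family, and Kif5c. Several family leaders, such as Dctn3 and Kif26b, have only a fold change here. Values by library were also given for Kif5a, Kif5b, Kif3a, Dynlt3 and some others. Of the adaptors, the called ones were named. For the block, the numbers from the titles were taken as pairs. Same-numbered mice deviated together over genes (correlations of 0.914, 0.946 and 0.960), but these values include the shift between the series. The series is nested in the numbers, and within the first series the correlation was 0.0352, so pairs within a series were not shown. Promoter windows came from RefSeq (GRCm38.p6), and 44 motor genes matched.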

Additional observations from a re-analysis of the deposited data

Results flagged for a closer look

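Dynll1, which encodes the light chain LC8 type 1, had 69.2, 72.2, 71.3 and 90.0 CPM in nm3888-/- mice 1 to 4, against 59.5, 66.9 and 76.2 CPM in wild-type mice. The gap from nm3888-/- mouse 4 to the nearest other nm3888-/- mouse was 0.858 of the range of the 4, above Dixon's critical value for 4 samples at 95% confidence. Chance gives such a gap in about 1 of 20 groups, and the wild-type mouse of the same series also had the highest value of its group.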

How the results depend on the processing

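RLE size factors, DESeq2, no filter on low counts and leaving out pseudogenes kept all 8 motor genes lower and called 9, 10, 11 and 9 in all. The replicate block, which pairs mice by number and leaves nm3888-/- mouse 4 without a partner, left 4 lower. No batch term left 1, and sex as the term, which absorbs the male nm3888-/- mice, left 0. Leaving out 1 library left 3 to 9 lower and 0 to 1 higher; 4 were left without wild-type mouse 2 and 3 without wild-type mouse 3. One gene, Kif5b, was higher (a count of 1) under DESeq2, under no filter on low counts and without nm3888-/- mouse 1. Adaptors called lower numbered 0 with no batch term, 0 with sex, 1 with the block and 0 to 5 with 1 library left out.

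Over all genes, 251 were lower with no batch term, 85 with sex, 571 with the block and 426 to 991 with 1 library left out. Called higher were 791 with DESeq2, 731 with no filter, 58 with no batch term, 17 with sex, 241 with the block and 173 to 434 with 1 library left out. The block changed no other call on motor genes or adaptors. In the first series alone, 6 motor genes were lower with DESeq2 and 5 with no filter. In the second, 2 were lower with no filter, and 0 were higher with RLE factors or without pseudogenes.

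The median log2 fold change of the motor genes was 0.0126 with RLE factors, 0.00477 with DESeq2, 0.061 with no batch term, 0.0113 with the block, 0.00935 without pseudogenes, -0.29 with sex and -0.0314 to 0.0215 with 1 library left out. Of the genes chosen for a full account, none of the called ones changed sign. Signs turned for Klc1 (0.0423), Dctn3 (0.0138) and Kif20a (0.061) with no batch term, for Kif20a (0.0805) with the block, and for Dync2li1 (-0.71), Kif9 (-0.14) and Kif19a (-0.30) with sex. With 1 library left out they turned for Kif1bp (-0.0314 to 0.0467, below 0 without nm3888-/- mouse 2 or wild-type mouse 2), Dync2li1 (-0.0165 to 0.14, below 0 without the same mice) and Kif20a (-0.19 to 0.36, above 0 without nm3888-/- mouse 4 or wild-type mouse 3). None of these passed the test under any of these settings. The cause of these shifts was not tested. By design, the fit with sex as the term compares first-series nm3888-/- mice with wild-type mice of both series. With 1 wild-type library in the second series and few counts for the 9 tested motor genes under 1 CPM, small differences were not detectable at this depth.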
